A study of Mus musculus with 8 samples.

Results

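Of the 19201 genes listed by symbol for the hippocampus of wild-type and Mbd2-/- mice, 8 were taken by symbol: the kainate receptor subunits Grik1, Grik2, Grik3, Grik4 and Grik5, the delta receptor subunit Grid1, and the auxiliary proteins Neto1 and Neto2. All 8 were in the data, and all 8 passed the filter on low values. RNA was sequenced in 4 wild-type and 4 Mbd2-/- libraries, and each library pooled the bilateral hippocampi of 2 mice aged 10 to 12 weeks. Both genotypes were bred as littermates from heterozygous parents, the wild-type animals are labelled C57BL/6, and male and female hippocampi were grouped in balanced numbers. No treatment is named for either group. Mbd2-/- mice carry a constitutive loss of the methyl-CpG binding protein Mbd2, not one limited to a cell type, and the allele still transcribes the first exon of the gene. Each value below is a normalized count, that is, the reads on a gene divided by a scaling factor of the library.

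Kainate receptors are glutamate-gated ion channels built of 4 subunits. Grik1 (GluK1), Grik2 (GluK2) and Grik3 (GluK3) bind kainate with low affinity and can form channels alone, whereas Grik4 (GluK4) and Grik5 (GluK5) bind it with high affinity and need a low-affinity partner. In the hippocampus, kainate receptors are best known from the mossy fibre synapse onto CA3 pyramidal neurons, where they act on both sides of the synapse, and from interneurons. Neto1 and Neto2 are transmembrane proteins with extracellular CUB domains that join kainate receptors and slow their gating. Grid1 (GluD1) is related to these channels in sequence but works mainly as an adhesion receptor, which is bridged by secreted cerebellins to presynaptic neurexins.

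Mbd2 binds DNA through methylated CpG dinucleotides, and its loss is the only genetic difference that the labels give between the groups. RefSeq promoters (GRCm38.p6, 250 bases before to 50 bases after the start) were at hand for 5 of the 8 genes, namely Grik2, Grik3, Grik4, Grik5 and Neto2. The sequences of Grik3, Grik2 and Grik5 are shown because they span the range from CpG-dense to CpG-poor among the kainate subunits with a promoter here and because Grik3 alone of these 3 differed between the genotypes. They are written 5′ to 3′ on the strand of the gene, with each CpG in capitals. They lie at chr4:125490446-125490745 on the plus strand for Grik3, at chr10:49788705-49789004 on the minus strand for Grik2 and at chr7:25072320-25072619 on the minus strand for Grik5.
Grik3: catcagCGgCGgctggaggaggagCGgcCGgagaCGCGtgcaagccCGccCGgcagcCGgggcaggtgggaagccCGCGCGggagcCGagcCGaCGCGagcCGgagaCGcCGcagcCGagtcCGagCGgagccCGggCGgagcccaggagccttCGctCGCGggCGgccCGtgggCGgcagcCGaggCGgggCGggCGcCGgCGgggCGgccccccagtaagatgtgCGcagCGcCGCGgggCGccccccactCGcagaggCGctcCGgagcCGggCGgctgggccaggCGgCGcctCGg
Grik2: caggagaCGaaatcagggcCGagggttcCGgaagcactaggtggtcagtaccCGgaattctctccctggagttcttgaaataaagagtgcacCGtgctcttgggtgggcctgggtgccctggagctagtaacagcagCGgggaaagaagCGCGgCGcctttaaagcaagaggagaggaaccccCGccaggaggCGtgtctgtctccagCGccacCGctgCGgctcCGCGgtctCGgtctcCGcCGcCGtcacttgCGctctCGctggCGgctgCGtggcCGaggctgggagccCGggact
Grik5: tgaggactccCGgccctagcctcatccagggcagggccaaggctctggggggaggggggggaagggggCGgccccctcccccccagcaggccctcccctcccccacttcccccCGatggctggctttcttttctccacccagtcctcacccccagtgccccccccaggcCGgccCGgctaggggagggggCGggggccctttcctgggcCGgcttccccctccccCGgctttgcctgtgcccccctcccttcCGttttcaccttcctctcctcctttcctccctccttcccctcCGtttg
The Grik3 promoter held 50 CpGs, more than 99.1% of the 32851 promoters of the same length, and 82.0% of its bases were G or C. Grik4 had 42 CpGs, Grik2 had 26 and Grik5 had 10, against a median of 7 over all promoters. Neto2 is listed with a pair of starts, 1 with 36 CpGs and 1 with 0. The GC box GGGCGG, which contains a CpG, was searched on both strands and occurred 7 times in the Grik3 window, 2 times in those of Grik4 and Grik5, 2 times at the CpG-rich Neto2 start and 0 times in that of Grik2. At least 1 such box was present in 35.7% of all promoters. These counts describe the letters of the windows and say nothing about binding or methylation in these animals.

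The libraries held between 8087750 and 23790825 reads on genes. The targeted gene Mbd2 was at 295, 363, 371 and 354 normalized counts in wild-type replicates 1 to 4 and at 244, 239.6, 339 and 217 in Mbd2-/- replicates 1 to 4. Its log2 difference was -0.43 (SE 0.12, adjusted p = 0.0174, limma), and the groups overlapped through Mbd2-/- replicate 3. The change of each gene against the wild-type mean fell with transcript length in 3 Mbd2-/- libraries, with Spearman coefficients across genes of -0.48, -0.43 and -0.48, whereas Mbd2-/- replicate 4 stood apart at -0.10. In the wild-type libraries the same coefficient was between -0.07 and 0.06. All 12 choroid plexus markers rose in the Mbd2-/- libraries, against 12.0% of all tested genes, and 9 of 12 thalamus markers fell, against 10.0%.

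Among the 8 genes, Grik3 and Grid1 had lower RNA levels in Mbd2-/- hippocampi, and no gene rose. Grik3 fell by 26.7%. Its call held once a trend with transcript length was removed, but its log2 difference went from -0.45 to -0.31. Grid1 fell by 14.5%, a call that did not hold with that trend removed. The changes of Neto1 (-10.6%) and Neto2 (-15.4%) did not pass the test. Grik1, Grik2, Grik4 and Grik5 had values of -2.72% to -7.27% and did not pass it either. These 2 of 8 genes (25.0%) compare with 10.0% of the 14504 tested genes called lower and 12.0% called higher at an adjusted p under 0.05 (limma, Benjamini-Hochberg over all tested genes). The log2 differences of all 8 were negative, with a median of -0.14, whereas 50.0% of all tested genes were negative, with a median of 0.00. In Grik3 and Grid1 all 4 Mbd2-/- libraries lay below all 4 wild-type libraries, a separation that 11.5% of tested genes showed in this direction. In bulk tissue, fewer cells of a type and less RNA per cell cannot be told apart.

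**Figure D1:**
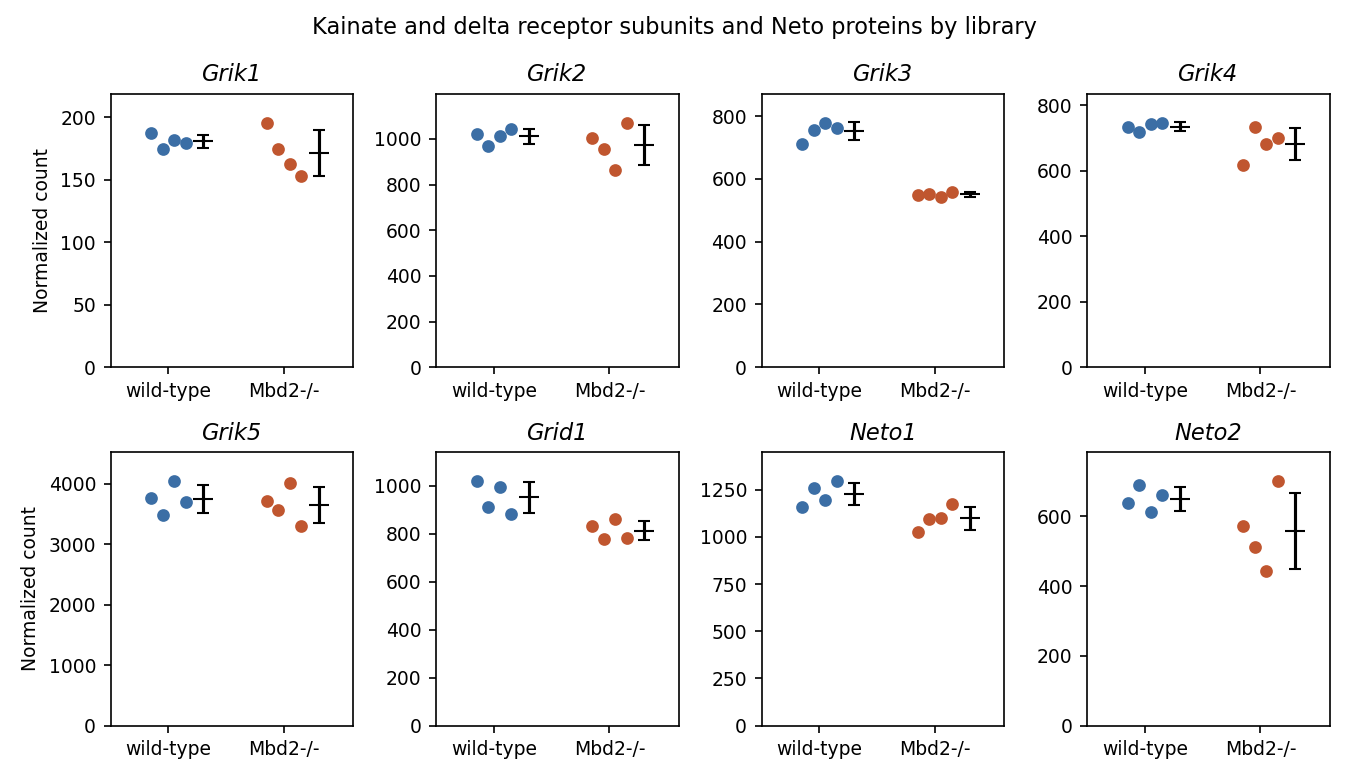
Normalized counts of the 8 genes in each of the 4 wild-type and 4 Mbd2-/- libraries, with 1 point per library and the group mean ± SD. The Grik3 points of the genotypes are far apart, the Grid1 points are separate, and those of the other 6 genes overlap.

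Grik3 encodes a low-affinity subunit whose receptors need high glutamate concentrations to open. The gene spans positions 125167944 to 125391417 of chromosome 4 on the plus strand (mm9, as for all genes below), with 16 exons in its longest transcript. Its normalized counts were 710.4, 756, 779 and 761 in wild-type replicates 1 to 4 and 549, 551, 542 and 558 in Mbd2-/- replicates 1 to 4. The highest Mbd2-/- library was thus well below the lowest wild-type library, and the Mbd2-/- libraries were the more uniform group. The means were 751.5 ± 29.0 (SD, n = 4 libraries) and 550.2 ± 6.76 (SD, n = 4), and the log2 difference was -0.45 (SE 0.06, 95% interval -0.57 to -0.33, adjusted p = 1.19e-04, limma). Only 3.03% of the tested genes had a lower log2 difference in this fit, in which the length trend was not removed. The coefficient of variation was 3.86% in wild-type and 1.23% in Mbd2-/- libraries, while counting alone gives 5.42% at the 340 reads of the thinnest library, more than the spread seen between the Mbd2-/- libraries.

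Grik1 and Grik2, the other low-affinity subunits, did not pass the test. Grik1, a subunit known from interneurons, lies on chromosome 16 from 87896441 to 88289947 on the minus strand. It was at 187, 175, 181 and 179.5 normalized counts in wild-type and 195, 175, 163 and 153 in Mbd2-/- replicates 1 to 4. The Mbd2-/- libraries lay both above and below the wild-type ones. The log2 difference was -0.08 (95% interval -0.27 to 0.11, adjusted p = 0.555, limma), and with 102 to 338 reads per library Grik1 was the most thinly covered of the 8 genes. Leaving out single libraries moved this difference between -0.15 (without Mbd2-/- replicate 1) and -0.03 (without Mbd2-/- replicate 4).

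Grik2 is the main low-affinity subunit of principal neurons, and it lies on chromosome 10 from 48819266 to 49508572 on the minus strand. Wild-type replicates 1 to 4 gave 1022, 968, 1013 and 1044 normalized counts, and Mbd2-/- replicates 1 to 4 gave 1005, 957, 862 and 1071. Mbd2-/- replicate 4 was the highest and replicate 3 the lowest of all 8 libraries. The log2 difference was -0.06 (SE 0.07, 95% interval -0.20 to 0.08, adjusted p = 0.554, limma), so that a loss of the size measured for Grik3 lies outside its interval. It was -0.11 without Mbd2-/- replicate 4 and 0.00 without Mbd2-/- replicate 3.

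Both high-affinity subunits overlapped between the genotypes. Grik4, a subunit enriched in CA3 and the dentate gyrus, lies on chromosome 9 from 42326218 to 42752576 on the minus strand. Its normalized counts were 733, 717, 741 and 746 in wild-type and 615, 732, 681 and 701 in Mbd2-/- replicates. Mbd2-/- replicate 2 lay within the wild-type range and the other Mbd2-/- libraries lay below it, with a log2 difference of -0.11 (SE 0.06, 95% interval -0.24 to 0.02, adjusted p = 0.226, limma). It was -0.06 without Mbd2-/- replicate 1, the lowest library, and -0.01 with the length trend removed.

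Grik5, the widely expressed high-affinity partner of Grik2, lies on chromosome 7 from 25794872 to 25857388 on the minus strand. It was the most abundant of the 8, at 3771, 3491, 4044 and 3697 normalized counts in wild-type and 3725, 3571, 4010.2 and 3304 in Mbd2-/- replicates 1 to 4. Its log2 difference of -0.04 was the smallest in size of the 8 (SE 0.06, 95% interval -0.17 to 0.09, adjusted p = 0.683, limma), and without Mbd2-/- replicate 4 it was 0.01.

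Because kainate receptors assemble from these subunits, the 5 levels were also set against each other within each library. On a scale of normalized counts per kb of the longest transcript, Grik5 made up 67.0 ± 1.09% (SD, n = 4) of the summed kainate subunit level in wild-type libraries and 68.4 ± 2.66% (SD, n = 4) in those of Mbd2-/- mice. The next largest share belonged to Grik2, at 14.5 ± 0.534% and 14.6 ± 1.88%. Grik4 followed with 8.55 ± 0.290% and 8.35 ± 0.817%, and Grik1 had 4.28 ± 0.157% and 4.26 ± 0.413%. The Grik3 share was 5.41% to 6.12% in wild-type and 4.14% to 4.72% in Mbd2-/- libraries, and it was the only share of the 5 for which the genotypes did not overlap. This share is built from the same Grik3 counts as above, without removal of the length trend, and is not independent of them. The high-affinity pair Grik4 and Grik5 together gave 75.5 ± 0.798% and 76.7 ± 2.21%. These shares are levels of RNA per kb and not of receptors, and they rest on annotated transcript lengths that may lack the ends of some transcripts.

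**Figure D2:**
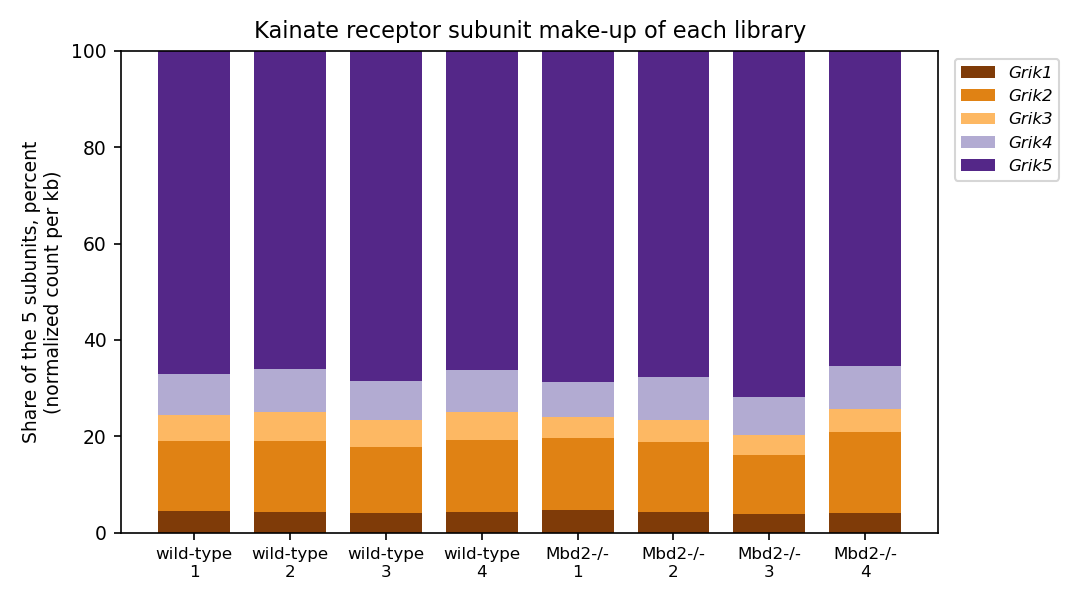
Share of the 5 kainate receptor subunits in their summed normalized counts per kb (percent), for each genotype. Grik5 makes up more than all others together in both genotypes, and the Grik3 share is 5.75 ± 0.301% (SD, n = 4) for wild-type and 4.41 ± 0.242% (SD, n = 4) for Mbd2-/- libraries.

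The ratio of 2 genes within a library does not depend on library scaling but can still carry the trend with transcript length. Of such ratios, 3 were compared. The log2 ratio of Grik3 to Grik2 was -0.52, -0.36, -0.38 and -0.45 in wild-type and -0.87, -0.79, -0.67 and -0.94 in Mbd2-/- replicates 1 to 4. All Mbd2-/- libraries were lower than all wild-type libraries, with means of -0.43 ± 0.08 and -0.82 ± 0.12 (SD, n = 4 each). The difference was -0.39, with p = 0.0286 in an exact two-sided permutation test, the smallest value that 4 against 4 libraries allow, and p = 0.0857 after Benjamini-Hochberg adjustment over the 3 ratios. With the length trend removed, the difference was -0.32 (exact permutation, adjusted p = 0.0857). On a linear scale, the ratio of normalized counts was 0.744 ± 0.0393 in wild-type and 0.568 ± 0.0460 in Mbd2-/- libraries. The log2 ratio of Grik4 to Grik5 was -2.35 ± 0.0725 and -2.42 ± 0.184 (exact permutation p = 0.486, adjusted p = 0.571). Its difference of -0.069 was -0.006 with the length trend removed.

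**Figure D3:**
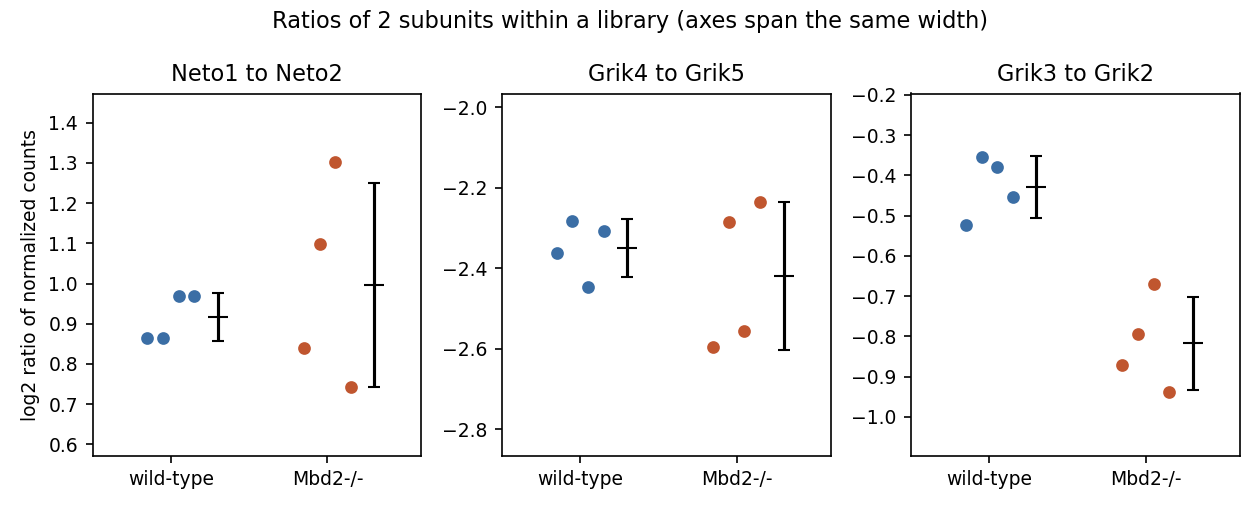
Log2 ratios of normalized counts within a library for Neto1 to Neto2, Grik4 to Grik5 and Grik3 to Grik2, with 1 point per library and the group mean ± SD. Only for Grik3 to Grik2 do the 4 Mbd2-/- libraries sit below all wild-type libraries.

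Grid1 is a large gene on chromosome 14 from 35633011 to 36396565 on the plus strand, with 16 exons in its longest transcript. Wild-type replicates 1 to 4 had 1019, 912, 995 and 884 normalized counts and Mbd2-/- replicates 1 to 4 had 831, 777, 864 and 783. The groups did not overlap, but the highest Mbd2-/- library was close to the lowest wild-type library. The means were 952 ± 64.6 and 814 ± 41.2 (SD, n = 4 each), a log2 difference of -0.23 (SE 0.06, 95% interval -0.36 to -0.09, adjusted p = 0.0180, limma). This call was lost when the trend with transcript length was removed (log2 difference -0.13, adjusted p = 0.209), and also without wild-type replicate 1 (adjusted p = 0.0728), wild-type replicate 3 (0.0676) or Mbd2-/- replicate 2 (0.0669).

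Neto1, which was first described as a partner of NMDA receptors and is abundant in CA3, lies on chromosome 18 from 86564344 to 86671289 on the plus strand, 15779 kb from Mbd2 on the same chromosome. Its normalized counts were 1160.1, 1259, 1198 and 1295 in wild-type and 1025, 1096, 1098 and 1172 in Mbd2-/- replicates 1 to 4. The groups met through Mbd2-/- replicate 4, which was just above wild-type replicate 1. The log2 difference was -0.16 (SE 0.06, 95% interval -0.29 to -0.04), with an unadjusted p of 0.0135 and an adjusted p of 0.0574 (limma). With upper-quartile scaling the adjusted p was 0.0430.

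Neto2, the other member of the pair, lies on chromosome 8 from 88161136 to 88224653 on the minus strand. In wild-type replicates 1 to 4 it was at 637, 691, 612 and 661 normalized counts, and in Mbd2-/- replicates 1 to 4 at 572, 511, 445 and 701. Mbd2-/- replicate 4 was the highest of all 8 libraries and the other Mbd2-/- libraries were below every wild-type library. This gave Neto2 the widest Mbd2-/- spread of the 8 genes, with a coefficient of variation of 19.5%, and a log2 difference of -0.24 (SE 0.10, 95% interval -0.46 to -0.02, adjusted p = 0.112, limma). Without Mbd2-/- replicate 3, the lowest library, the log2 difference was -0.14 (adjusted p = 0.274).

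Mbd2-/- replicate 4, the library that stood apart in its relation to transcript length, moved both Neto results across the threshold. Without it, the log2 difference of Neto1 was -0.19 (adjusted p = 0.00539, limma) and that of Neto2 was -0.36 (adjusted p = 3.90e-04), so that 4 of the 8 genes were called lower, against 17.6% of tested genes in the same fit. Grik3 was then at -0.46 (adjusted p = 1.19e-06) and Grid1 at -0.21 (0.00759), and Grik1, Grik2, Grik4 and Grik5 did not pass. The ratio of Neto1 to Neto2 normalized counts was 1.82, 1.82, 1.96 and 1.96 in wild-type and 1.79, 2.14, 2.47 and 1.67 in Mbd2-/- replicates 1 to 4, the latter reaching both above and below the former. On the log2 scale its means of 0.917 ± 0.0606 and 0.996 ± 0.254 (SD, n = 4 each) did not differ beyond this spread (exact permutation p = 0.571, adjusted p = 0.571 over the 3 ratios).

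Across the 8 genes the longest transcript had a median length of 4880.5 bases, against 3187 bases over the 14186 tested genes with a length. Grik1, at 2894 bases, was the 1 gene below that median, and Grik3, at 8973 bases, had the longest transcript of the 8. When the trend with transcript length was removed within each library, Grik3 was still lower. Its log2 difference was then -0.31 (95% interval -0.44 to -0.19, adjusted p = 0.00157, limma), against -0.45 before. Grid1 was then at -0.13 (95% interval -0.26 to 0.01, adjusted p = 0.209) and no longer passed. Grik2 moved to 0.01, the other 7 genes stayed negative, and the median of the 8 was -0.11. Of these 7, Grik4 (-0.0116, 95% interval -0.13 to 0.11) and Grik5 (-0.0056, 95% interval -0.13 to 0.12) were as near to 0 as Grik2. With the trend removed, 1 of the 8 genes was called lower, against 6.77% of tested genes called lower and 8.05% called higher. What the trend stems from was not tested.

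**Figure D4:**
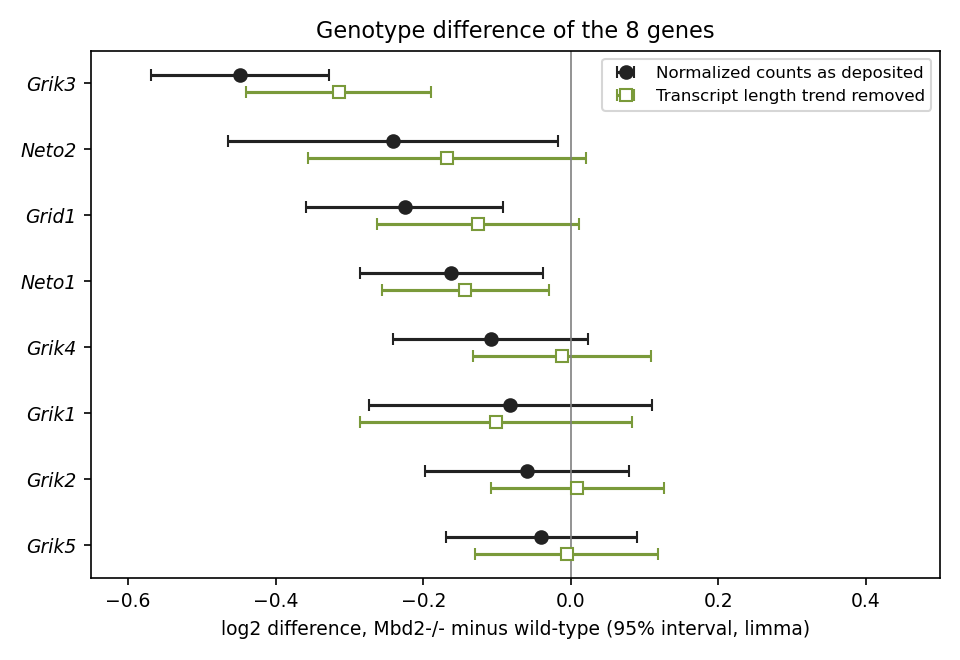
Log2 difference between Mbd2-/- and wild-type libraries with its 95% interval (limma) for each of the 8 genes, on the deposited normalized counts (filled circles) and with the trend on transcript length removed (open squares). The interval of Grik3 lies below 0 in both, and that of Grid1 reaches 0.01 when the trend is removed.

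Levels of different genes were compared per kb of the longest annotated transcript in wild-type hippocampi. Grik5 had the highest level at 978 ± 59.6 normalized counts per kb (SD, n = 4), followed by Neto1 at 348 ± 17.1, Grik2 at 211 ± 6.68 and Grid1 at 159 ± 10.8. Neto2 at 131 ± 6.85 and Grik4 at 125 ± 2.14 overlapped between libraries and cannot be ordered. Grik3 at 83.8 ± 3.24 and Grik1 at 62.4 ± 1.83 were the lowest, and every other pair of neighbours in this order was separate in all 4 libraries. In Mbd2-/- hippocampi Grik3 was at 61.3 ± 0.754 normalized counts per kb, beside 59.2 ± 6.34 for Grik1. No exon of another annotated gene overlapped an exon of the 8 genes in GENCODE vM1.

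The genes whose profile over the 8 libraries was most like that of Grik3 were Ntng1, Sorcs3 and Atp2b4, by the root mean square difference of their centred log2 values (0.0490, 0.0509 and 0.0514). Their own log2 differences between the genotypes were -0.42, -0.37 and -0.45 (adjusted p = 5.36e-04, 6.04e-04 and 3.46e-05, limma). Ntng1, an adhesion protein of axons, was also in the list of thalamus markers. For Grid1 the nearest profiles were those of Lrrc8a, Arhgap23 and Phf24, with root mean square differences of 0.0360, 0.0407 and 0.0431 and log2 differences of -0.24, -0.16 and -0.24. Of these, Lrrc8a (adjusted p = 0.0116) and Phf24 (0.00659) passed the test and Arhgap23 (0.0658) did not. Likeness of profile is a description over 8 libraries in which the genotype is part of the profile.

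Genes that work with these receptors were followed in lists of 35 genes in all, of which 33 were tested. Of these, 12 (36.4%) fell and 1 rose, against 10.0% and 12.0% of all tested genes, with a median log2 difference of -0.16. Among the partners of delta receptors, 5 of 8 fell, with a median of -0.26. The secreted bridging proteins Cbln1 and Cbln2, which join Grid1 to neurexins, changed by -0.60 (adjusted p = 0.0240, limma) and -0.32 (0.0219) on the log2 scale. Their presynaptic receptors Nrxn3 and Nrxn2 changed by -0.28 (0.00312) and -0.18 (0.0208).

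None of the 3 tested C1q-like ligands, secreted proteins of which C1ql2 and C1ql3 bind kainate receptors at mossy fibre synapses, passed the test. C1ql2, the most abundant of them, was at 1373 ± 57.1 normalized counts in wild-type and 1559 ± 205 in Mbd2-/- libraries (adjusted p = 0.127, limma). Of 19 genes for trafficking and scaffolding of kainate receptors, 5 fell and 1 rose. Kif17, a motor of dendritic transport, changed by -0.25 on the log2 scale (adjusted p = 0.0434, limma). The scaffolds Dlg3 (SAP102) and Cask changed by -0.22 (0.00487) and -0.19 (0.0198), the membrane fusion ATPase Nsf by -0.19 (0.00660) and Dpysl2 (CRMP2) by -0.17 (0.0110). Dlg4, which encodes the postsynaptic scaffold PSD-95, rose by 0.17 (adjusted p = 0.0131). The RNA editing enzymes Adarb1 and Adar, which recode glutamate receptor transcripts that include Grik1 and Grik2, changed by -0.26 (adjusted p = 0.00115) and -0.20 (0.00693), and Adarb2 was at -0.16 (0.159). With the length trend removed, 8 of the 33 partner genes were called lower and 1 higher, against 6.77% and 8.05% of tested genes. The median log2 difference of the 33 was then -0.09. Among the called genes, Nrxn3 went to -0.16 and Adarb1 to -0.15, whereas Cbln1 went to -0.67 and Cbln2 to -0.36. Nrxn2 (-0.06, adjusted p = 0.514), Cask (-0.06, 0.433), Kif17 (-0.23, 0.0602) and Adar (-0.11, 0.162) then lost their calls.

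**Figure D5:**
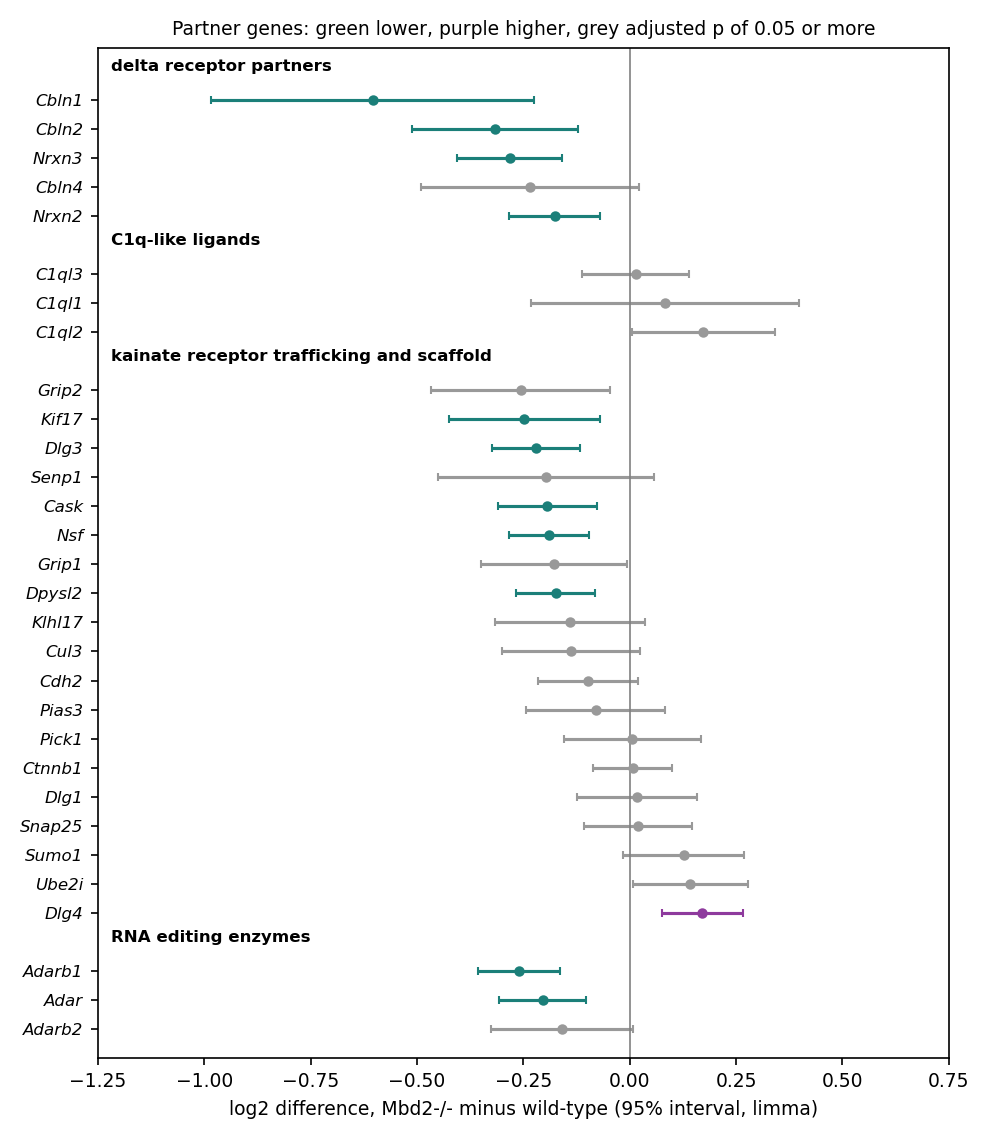
Log2 difference between Mbd2-/- and wild-type libraries with its 95% interval (limma) for the partner genes, grouped by role, with some tested genes of the lists not shown. Genes that fell are green, Dlg4, the 1 gene that rose, is purple, and genes that did not pass the test are grey.

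The other ionotropic glutamate receptor subunits were followed in the same fit. Of 11 AMPA and NMDA receptor subunits, 7 (63.6%) fell and 0 rose, against 10.0% and 12.0% of all tested genes, with a median log2 difference of -0.23. The NMDA receptor subunit Grin2d had the largest of these differences, at -0.52 (276.9 ± 19.9 to 193.4 ± 17.6 normalized counts, adjusted p = 8.68e-04, limma), beside -0.45 for Grik3. Grin1, Grin2a, Grin2b and Grin3a changed by -0.25, -0.27, -0.23 and -0.28, and the AMPA receptor subunits Gria1 and Gria3 by -0.14 and -0.25. With the length trend removed, 4 of the 11 were called lower and 1 higher, against 6.77% and 8.05% of tested genes. The median log2 difference of the 11 was then -0.16. Gria1 (-0.05, adjusted p = 0.450), Grin2b (-0.11, 0.136) and Grin3a (-0.16, 0.0863) then lost their calls, and Grin2c, an NMDA receptor subunit at 0.17 (adjusted p = 0.0671) before, was called higher at 0.25 (0.0202). In both fits, 1 of the 5 kainate receptor subunits was called lower. The difference in share between the kainate and the other subunits was not tested.

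Markers of the cell types and regions that a hippocampal dissection can hold were read beside these values. The summed normalized count of the 12 thalamus markers was 5336 to 5527 in wild-type and 3585 to 4249 in Mbd2-/- libraries, their median log2 difference was -0.55, and no marker was at 0 in any library. The largest change among them was that of Gbx2, at -1.51 (adjusted p = 0.00589, limma). For the 12 choroid plexus markers the sums were 14445 to 15700.2 and 31188 to 38717, with Ttr at 1.32. Both lists moved with the genotype in the same libraries as Grik3 and Grid1, and their part in the lower Grik3 and Grid1 values was not tested.

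The counts of markers compare with 10.0% of all tested genes called lower and 12.0% called higher, and with 6.77% and 8.05% when the length trend was removed. Within the hippocampal cell types, 1 of 8 CA3 markers fell (Chgb) and 1 rose (Bok, 0.51), and their sums of 11060.2 to 11924 and 10833 to 11336 overlapped. Of 8 dentate granule cell markers 1 fell and 2 rose (Tdo2 at 0.50), and 2 of 6 CA1 markers fell (Wfs1 at -0.31). Of 10 interneuron markers 3 fell and 4 rose, with Npy at 0.72, and with the length trend removed 3 fell and 1 rose, Npy at 0.37. Among glia, 5 of 8 astrocyte, 6 of 8 oligodendrocyte and 5 of 7 microglia markers rose, and 2 of 5 markers of oligodendrocyte precursors fell. With the length trend removed these counts were 7, 5, 3 and 0. Gfap, Opalin, Aif1 and Cspg4 showed the largest changes of these 4 lists. How far these shifts in markers contribute to the values of the 8 genes was not tested.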

How the data were processed

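Total RNA depleted of ribosomal RNA was sequenced in paired ends from 8 libraries, each a pool of 2 mice. Duplicated reads were removed by the authors, who mapped the remaining reads to mm9 with STAR and normalized and compared the genotypes with DESeq2, for which no versions are given. The tool that counted reads on genes and the use of strand are not given in the sources used here. The deposited signal is a normalized count, which the authors made by dividing the reads on a gene by the size factor that DESeq2 gave to that library. Deposited columns with the mean, log2 fold change, standard error, statistic and p-values of the authors' own comparison were not used. Reads were recovered by dividing by the lowest nonzero value of a library, and 100% of nonzero values came out whole to within 0.01 read. One read equals 0.531 to 1.59 normalized counts, and the libraries held 8087750 to 23790825 reads, which give counting error only.

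The 14504 of 19201 genes whose mean normalized count reached 10 were compared on log2(normalized count + 1) with limma 3.58.1 (trend, robust) in R 4.3.3 with calls at an adjusted p (Benjamini-Hochberg) under 0.05. Fold changes are on this scale and percentages follow from them. The wild-type group is the one labelled control, and the table's C and K columns were matched to the control and Mbd2-/- labels by letter and number. Nothing says which mice were pooled, so p-values measure the spread between these libraries. Ratios were tested with exact permutations (scipy 1.17.1). Gene models are GENCODE vM1 on mm9, matched by symbol, and levels per kb use the longest transcript. The length trend was removed per library with a lowess curve on the length of the longest transcript. Alternatives were TMM and upper-quartile scaling, no filter, a mean of at least 50, a pseudocount of 5, a replicate block, each library left out, edgeR 4.0.16, limma-voom and DESeq2 1.42.0 on the recovered reads.

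The 8 genes, the partner and marker lists and the tests were chosen with earlier results of these data known. Named by rule were the 8 genes, Mbd2, called members of each partner and subunit list or else its most abundant member, the 3 nearest profiles of each called gene, and the largest change of each marker list. C1ql3, Adarb2, Grin2c and Chgb were named after their values were seen. Some genes of the lists, also some that the rule selects, are counted but not reported here.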

Additional observations from a re-analysis of the deposited data

How the results depend on the processing

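Grik3 was called lower in all 18 alternatives, with log2 differences between -0.48 and -0.31 and adjusted p-values of at most 0.00157. Grid1 was called in 9 of 10 alternatives that kept all libraries and in 5 of 8 that left 1 out, with a range of -0.26 to -0.19 for the latter. The number of the 8 genes called lower was 1 with the length trend removed and 1 to 4 when a library was left out, and 0 genes were called higher in any alternative by limma, edgeR or DESeq2, nor was any of the 8 higher in limma at an unadjusted p under 0.05 (0 genes). The values below 0 of Grik2 and Grik5 changed sign, to 0.0089 with the length trend removed and to a range of -0.0859 to 0.0072 when a library was left out, respectively. Over all tested genes, 961 were called lower and 1142 higher with the length trend removed, and 868 to 2559 lower when a library was left out. Without a library, 8 to 19 partner genes and 4 to 10 of the other glutamate receptor subunits were called. The cause of these changes was not tested.

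Replicate numbers are shared between the genotypes, but nothing in the labels says that they pair animals. The deviations of same-numbered libraries correlated at -0.10, -0.06, 0.07 and 0.04. With the number as a replicate block, 1449 genes were called lower and 1743 higher, 3 of the 8 genes were called lower and Neto2 passed (-0.24, adjusted p = 0.0460), and 10 of the other glutamate receptor subunits were called. Depth limits Grik1 most, since its thinnest library held 102 reads.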
